A study of Mus musculus with 12 samples.

Results

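The comparison described here sets mouse embryonic fibroblasts (MEFs) that received 7 transcription factors against MEFs that received 3 of them. The 3 arrays labelled TF group 3 carried lentiviruses for GATA4, TBX5, MEF2C, Mesp1, SMARCD3, MYOCD and SRF. They were compared with the 3 arrays labelled TF group 1, which carried GATA4, TBX5 and MEF2C only. These are 6 of the 12 arrays of the series, chosen by their labels. The other 6 arrays are TF group 2 (the 3 factors with Mesp1 and SMARCD3) and a negative control with M2rtTA alone, and both entered the model only to share the estimate of spread, except where their values are given. All groups, the negative control among them, carried M2rtTA, the transactivator that switches the factor vectors on with doxycycline, and all were kept with doxycycline for 7 days. The MEFs are labelled C57BL/6, and per the study's methods valproic acid was part of the induction and each factor was a human cDNA apart from mouse Mesp1. Arrays of a group are labelled biological replicates, and each measured RNA of a whole culture of transduced and untransduced cells, so that fewer cells of a type and less RNA per cell cannot be told apart. The question put to these arrays was what MESP1, SMARCD3, MYOCD and SRF together add to GATA4, TBX5 and MEF2C. Since the 4 factors were added together, their separate parts cannot be told apart in this difference. Nor can the added factors be told apart from the number of factor viruses, 7 against 3.

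GATA4, TBX5 and MEF2C form the core of the transcriptional network of the developing heart and are the usual starting set for turning fibroblasts into cardiomyocyte-like cells. Mesp1 marks and directs early cardiac mesoderm, and SMARCD3 (BAF60C) is the subunit that links the BAF chromatin remodelling complex to cardiac factors. SRF binds a short A/T-rich element, the CArG box, in promoters of muscle contractile genes and of immediate early genes, and MYOCD is its coactivator in cardiac and smooth muscle, where it favours the contractile genes.

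Each array gave 1 linear signal for each of 22690 probe sets, of which 64 were controls. The trimmed mean signal was 500.2 on all 12 arrays. In both groups 20.4% to 23.3% of probe sets lay under a signal of 32, the level (5 on the log2 scale) below which replicates scattered widely: the median SD of log2 signal was 0.84 there and 0.05 above 11. Log2 signals correlated at r = 0.9624 to 0.9656 within TF group 3, at 0.9618 to 0.9642 within TF group 1 and at 0.9501 to 0.9533 between the groups, across probe sets. Poly-A spikes, added to the RNA in fixed amounts, averaged 0.11 log2 units less in TF group 3 than they did in TF group 1 (exact permutation p = 0.2, two-sided, 20 arrangements, smallest possible 0.1). Hybridization spikes were 0.21 lower, with the 3 arrays of TF group 3 all below the 3 of TF group 1 (exact permutation p = 0.1). The fibroblast markers Vim and Col1a1 were bright in both groups. Vim gave 15250, 14890 and 14630 in TF group 3, against 16910, 16290 and 15560 in TF group 1. The summed signal of 26 macrophage genes was 1110 to 1330 in TF group 3 and 1182 to 1216 in TF group 1, and that of 26 endothelial genes was 2120 to 2298 in TF group 3 and 2343 to 2446 in TF group 1. For 31 epithelial and desmosome genes it was 12380 to 13290 in TF group 3 and 11430 to 11760 in TF group 1. For 28 adipogenic genes it was 19090 to 19390 in TF group 3 and 16110 to 16820 in TF group 1. Without Car3, which is on the adipogenic list, the other 27 summed to 13630 to 14200 in TF group 3 and 15910 to 16560 in TF group 1. Ptprc and Pecam1, which define blood and endothelial cells, stayed near or under a signal of 32 in both groups. The macrophage marker Adgre1 was above 32 on every array and was not called. It gave 54.1, 46.3 and 53.8 in TF group 3, against 43.9, 70.4 and 60.8 in TF group 1. The part of such cells in the results was not tested.

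A total of 687 of 22626 probe sets were higher in TF group 3 (3.04% of those tested) and 592 lower (2.62%). A call needed a change of over 1.5-fold from TF group 1 and an adjusted p below 0.05 in limma, by the method of Benjamini and Hochberg. With 1 probe set standing for each gene, 404 of 12393 genes were higher (3.26%) and 378 were lower (3.05%). For each gene so called the 3 arrays of one group lay on one side of the 3 of the other. Over all 12393 genes this held for 4631, so it adds little to a call. The median log2 difference over all genes was -0.02. With means under a signal of 32 raised to 32, 193 of the higher genes had changed over 2-fold and 48 over 4-fold, against 115 and 17 of the lower genes. The split moved most when arrays were scaled to their poly-A spikes. With arrays centred on their median, 421 genes were called higher and 353 lower, and with quantile normalization 410 and 396. With arrays scaled to their poly-A spikes (poly-A scaling) the median difference of all probe sets moved to 0.10 (here -0.01), 259 genes were called higher and 86 lower, and 73.8% of called probe sets were higher, against 53.7% here.

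**Figure D1:**
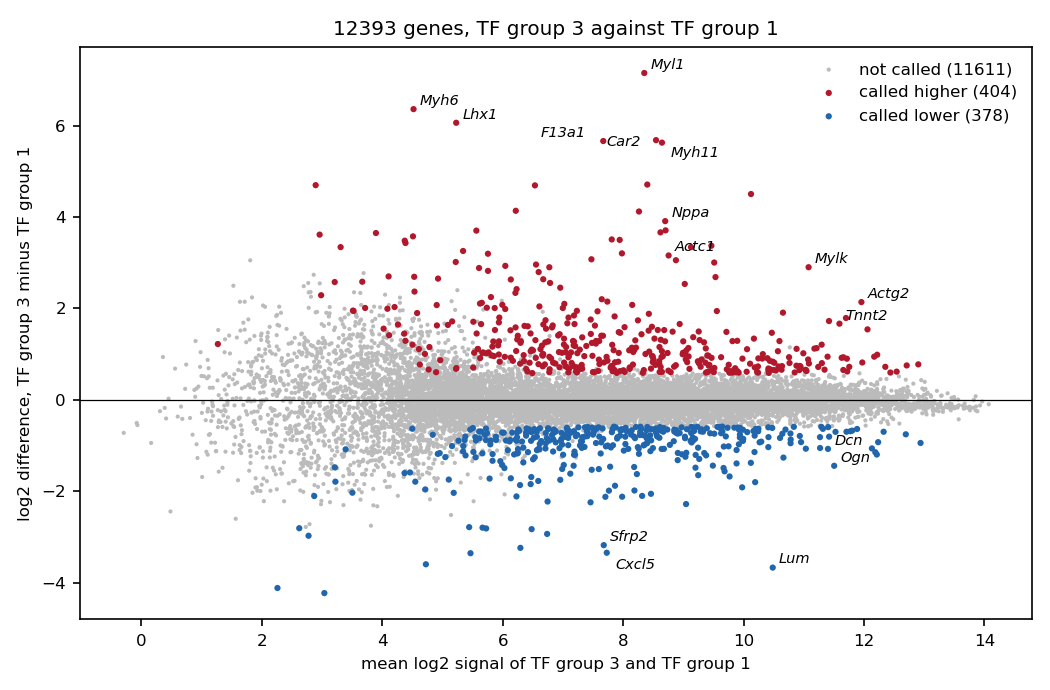
Each point is 1 of 12393 genes, with the mean log2 signal of both groups on the x axis and the log2 difference, TF group 3 minus TF group 1, on the y axis. The 404 genes called higher reach further from 0 than the 378 called lower, and the scatter of uncalled genes widens at low signal.

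Of the 4 added factors, Mesp1 and Smarcd3 gave a higher signal in TF group 3. Mesp1, delivered as the mouse cDNA, gave 1726, 1586 and 1253 in TF group 3, against 112, 114 and 121 in TF group 1, a 13.1-fold increase (log2 difference 3.71, SE 0.22, adjusted p = 1.47e-05). Smarcd3 gave 1103, 1072 and 1020 in TF group 3, against 727, 574 and 720 in TF group 1. Both groups were apart, and the difference was 0.67 (SE 0.13, adjusted p = 0.00879), or 0.56 and under the fold threshold without TF group 1 replicate 2. Srf and Myocd were not called at any probe set. Srf gave 489, 432 and 401 in TF group 3, against 405, 406 and 470 in TF group 1 (difference 0.04, SE 0.12, adjusted p = 0.864). Myocd, at its brighter probe set, gave 54.7, 42.2 and 39.1 in TF group 3, against 32, 35.2 and 31.2 in TF group 1 (difference 0.45, SE 0.19, adjusted p = 0.169). TF group 3 was above TF group 1 on every array at this probe set, close to the lowest signals the array resolves. The factors common to both groups, Gata4, Tbx5 and Mef2c, had no called probe set, with differences between -1.01 and 0.32 over 9 probe sets. Probe sets were designed on mouse transcripts, and how far they detect the human cDNAs was not tested, so delivered and endogenous transcripts cannot be told apart in TF group 3. The study's methods report that qualitative RT-PCR detected the delivered factors in this experiment, so an uncalled probe set does not show that a factor was absent.

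Smooth muscle contractile genes were higher in TF group 3. Of 28 measured, 13 were called higher and none lower (46.4% against 3.26% of all genes), and their median log2 difference was 0.59 against -0.02 for all genes. As many were called when any 1 array was left out, and 10 were called with poly-A scaling. The summed signal of the 28 genes was 115400 to 118000 in TF group 3 and 78280 to 82280 in TF group 1. Myh11, the smooth muscle myosin heavy chain, gave 2890, 2880 and 2676 in TF group 3, against 54.8, 57 and 59.2 in TF group 1. It was 49.4-fold higher (log2 difference 5.63, SE 0.15, adjusted p = 9.2e-08), with no overlap and little spread in either group, and its second probe set rose by 4.56. Mylk, the myosin light chain kinase, gave 5880, 5736 and 6137 in TF group 3, against 732, 836 and 812 in TF group 1, a 7.47-fold increase (difference 2.90, SE 0.07, adjusted p = 7.56e-08), and its other probe sets rose by 2.34 to 3.38. Every array of TF group 3 was well above those of TF group 1. Actg2, the enteric smooth muscle actin, gave 8127, 8060 and 8865 in TF group 3, against 1948, 2044 and 1708 in TF group 1 (4.4-fold, adjusted p = 9.99e-06). Kcnmb1, the beta subunit of the calcium-activated potassium channel of smooth muscle, gave 248, 340 and 318 in TF group 3, against 32.3, 40.9 and 48.6 in TF group 1 (7.47-fold, adjusted p = 4.31e-05). Lmod1, a leiomodin that nucleates actin in smooth muscle, gave 305, 339 and 328 in TF group 3, against 128, 123 and 117 in TF group 1 (2.64-fold, adjusted p = 3.28e-06). The groups were apart for each of these genes.

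The other 8 called members were smaller changes, between 0.66 and 1.07 on the log2 scale: the calponin Cnn1, the regulatory light chain Myl9, the LIM proteins Csrp1, Fhl1, Lpp and Pdlim7, the intermediate filament gene Des, and Mrvi1, a regulator of calcium release. Des has a second, dimmer probe set that differed by -0.63 and was not called, and with the mean of both its difference was 0.12 (adjusted p = 0.76). The 15 uncalled members lay between -0.29 and 2.16. Several of the brightest smooth muscle markers were among them. Acta2, the smooth muscle actin of myofibroblasts, gave 15410, 15090 and 15160 in TF group 3, against 15020, 14190 and 14050 in TF group 1 (difference 0.08, adjusted p = 0.578), signals near the highest on these arrays at a probe set that can detect related transcripts, and its second probe set was 1.56 higher and called. The difference of Tagln was 0.25 (adjusted p = 0.0323) and that of Tpm1 was 0.43 (adjusted p = 0.000912), both under the fold threshold. Cald1, which encodes caldesmon, differed by 0.02 (adjusted p = 0.902).

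Of 36 cardiac sarcomere and stress genes, 13 were called higher and 1 lower (36.1% and 2.78%, against 3.26% and 3.05% of all genes). Their median log2 difference was 0.43. With 1 array left out, 11 to 13 were called higher, and 8 were with poly-A scaling. The summed signal was 45920 to 47750 in TF group 3 and 25020 to 25320 in TF group 1. Nppa, the atrial natriuretic peptide, gave 1425, 1416 and 2068 in TF group 3, against 95.1, 109 and 118 in TF group 1. It was 15-fold higher (log2 difference 3.91, SE 0.24, adjusted p = 1.73e-05), and all arrays of TF group 3 were far above those of TF group 1, replicate 3 the most. Actc1, the cardiac actin, gave 1239, 1092 and 1589 in TF group 3, against 142, 154 and 138 in TF group 1 (8.93-fold, difference 3.16, SE 0.23, adjusted p = 4.31e-05). Nppb, the B-type natriuretic peptide, gave 1496, 1432 and 1501 in TF group 3, against 387, 394 and 372 in TF group 1 (3.84-fold, adjusted p = 5.3e-05). Both peptides and the actin were thus apart on all arrays. Myh6, the alpha myosin heavy chain of the adult mouse heart, gave 198, 206 and 220 in TF group 3, while all 3 arrays of TF group 1 lay under 10 at this probe set. It was at least 6.49-fold higher against a signal of 32 (adjusted p = 0.00693), but its second probe set differed by -0.34 and was not called. Myl2, the ventricular regulatory light chain, gave 130, 142 and 160 in TF group 3, against 16, 24.8 and 21.1 in TF group 1, and was at least 4.49-fold higher (adjusted p = 5.55e-05). These 2 genes were near the lowest signals in TF group 1 and remained modest in TF group 3.

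The other 8 members called higher rose by 0.62 to 1.79: the stress gene Ankrd1 (1.79, SE 0.05), the troponins Tnnt2 (1.67, SE 0.06, at a probe set marked as able to detect other transcripts) and Tnnc1 (0.94, SE 0.12), the M-band gene Myom1, titin (Ttn), the thin filament cap Tmod1, Des and the chaperone Cryab. The calls of Des and Cryab ended with the mean of each gene's probe sets (0.12 and 0.44). Tnni1, the slow skeletal troponin I that the fetal heart also uses, was the member called lower, with 31.9, 22.9 and 64 in TF group 3, against 160, 146 and 163 in TF group 1 (difference -2.11, SE 0.50, adjusted p = 0.0229). Its difference was between -1.79 and -2.16 in the 5 single-array omissions that ended its call, which left out replicate 1 or 2 of TF group 3 or any replicate of TF group 1. The 22 uncalled members lay between -2.30 and 2.16, and 6 members were under a signal of 32 in both groups. Among them Tnni3, the adult cardiac troponin I, gave 24.9, 21.7 and 23.1 in TF group 3, against 13.1, 31.8 and 31.9 in TF group 1. Smpx, a small protein of striated muscle, gave 2606, 2516 and 2667 in TF group 3, against 1163, 1225 and 1127 in TF group 1. These did not overlap, but its adjusted p in the model of all 12 arrays was 0.0691. Mybpc3, myosin-binding protein C, differed by -0.01 (adjusted p = 0.963).

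Calcium handling and ion channel genes, which make a contractile cell excitable, were called about as often as genes at large. Of 32 measured 1 was called higher (3.12% against 3.26% of all genes) and none lower, and the uncalled ones lay between -1.61 and 0.96, with 11 of the 32 under a signal of 32 in both groups. The called gene was Casq2, the calcium store protein of cardiac sarcoplasmic reticulum, with 1301, 1432 and 1335 in TF group 3, against 185, 152 and 154 in TF group 1 (8.31-fold, SE of the log2 difference 0.28, adjusted p = 0.000144, at a probe set that can detect related transcripts). The 25 cardiac transcription factor genes that were not delivered had no call in either direction by limma over all genes, and their median difference was -0.04.

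Some skeletal muscle genes were higher in TF group 3. Of 37 measured, 6 were called higher and 1 lower (16.2% and 2.7%, against 3.26% and 3.05% of all genes), and the median difference was 0.21 (4 or 5 higher with any 1 array left out, 3 with poly-A scaling). Myl1, an alkali light chain of fast muscle that the embryonic heart also uses, had the largest difference of all genes. It gave 3743, 3839 and 4099 in TF group 3, against 20.9, 23.5 and 41.9 in TF group 1, at least 122-fold higher (adjusted p = 1.63e-06). Acta1, the skeletal actin, gave 568, 590 and 595 in TF group 3, against 216, 234 and 243 in TF group 1 (2.53-fold, adjusted p = 2.05e-05). Its signal was highest in the negative control, at 1422, 1613 and 1551. TF group 3 minus negative control was -1.39 for Acta1 (limma adjusted p = 1.49e-06). Mylpf, the fast muscle regulatory light chain, gave 143, 192 and 194 in TF group 3, against 15.8, 46.7 and 30.4 in TF group 1, at least 5.47-fold higher (adjusted p = 0.000951). The arrays of TF group 3 were above those of TF group 1 for each. Des, Cav3 (a caveolin of muscle) and Tnnt1 were the other members called higher, and the call of Tnnt1 ended when any 1 array was left out (adjusted p = 0.0713 to 0.146). Myh2, a fast myosin heavy chain, was lower, with 73.1, 70.4 and 100 in TF group 3, against 138, 168 and 142 in TF group 1 (difference -0.89, adjusted p = 0.0125). The regulators that define skeletal muscle were not called: Myod1 gave 87.3, 84 and 122 in TF group 3, against 88.2, 89.9 and 68.1 in TF group 1, and Myog was under 32 on all 6 arrays. The summed signal of the 37 genes was 14570 to 16150 in TF group 3 and 8491 to 9025 in TF group 1.

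Cytoskeletal and serum response genes also include targets of SRF. Of 34 genes of the actin cytoskeleton and focal adhesions 5 were called higher (14.7%, against 3.26% of all genes) and none lower. The median of the list was 0.20 (3 were called without TF group 1 replicate 2, and 2 with poly-A scaling). The 5 called were Enah (0.93), the migfilin gene Fblim1 (0.75), filamin A (Flna, 0.62), ezrin (Ezr, 0.60) and testin (Tes, 0.59). Without TF group 1 replicate 2 the last 2 were at 0.57 and 0.58, under the fold threshold, as was Tes at 0.57 without TF group 3 replicate 2 and at 0.58 without TF group 1 replicate 1. With the mean of its probe sets the adjusted p of Ezr was 0.32. Of 34 immediate early and serum response genes 4 were called higher (11.8%, against 3.26% of all genes) and none lower. Their median was 0.04 (3 were called without replicate 2 or 3 of TF group 3 or replicate 3 of TF group 1, and 2 with poly-A scaling). Egr2, a zinc finger factor induced by serum, gave 203, 228 and 244 in TF group 3, against 99.2, 83.2 and 94.3 in TF group 1 (2.44-fold, adjusted p = 0.000426). Ptgs2, the inducible cyclooxygenase, gave 3496, 3048 and 3468 in TF group 3, against 1877, 1926 and 1925 in TF group 1 (1.74-fold, adjusted p = 0.000146). The groups were apart for both. Maff rose by 0.94, and Fosl2 by 0.59, a call that ended without replicate 2 or 3 of TF group 3 or replicate 3 of TF group 1 (0.54 to 0.56). The 30 uncalled members lay between -0.47 and 0.54, and Egr1, a classic SRF target, was among them at 3514, 3516 and 3803 in TF group 3, against 3833, 3792 and 3744 in TF group 1 (difference -0.07, adjusted p = 0.779).

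**Figure D2:**
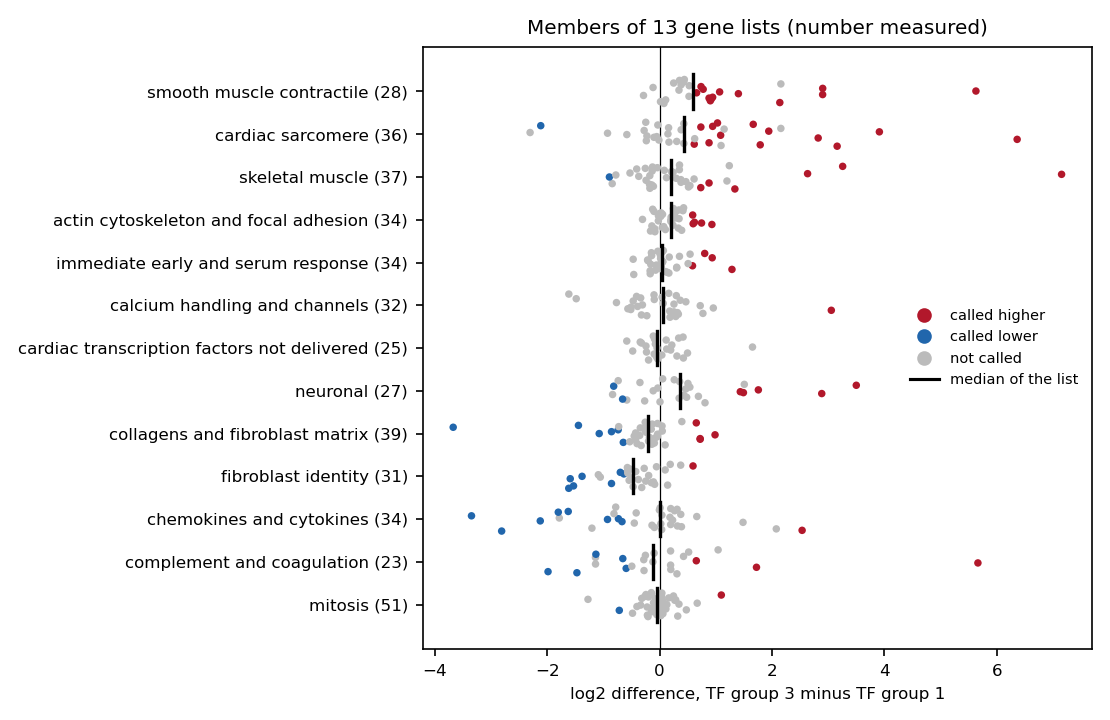
Each point is a member of 1 of 13 gene lists, placed by its log2 difference, TF group 3 minus TF group 1, and the black bar is the list's median. Called members of the smooth muscle list (13 of 28) all lie to the right of 0, whereas those of the fibroblast identity list (7 of 8 called) lie to the left.

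The CArG box was sought in the RefSeq promoters of GRCm38.p6, windows of 300 bases that run from 250 before to 50 after each annotated start. The box is its own reverse complement, so 1 search covers both strands, and a gene was counted once if any of its windows held a match. Of 9887 genes on the array with a window, 173 held a box (1.75%). The share was 4.28% for the genes called higher (13 of 304, the delivered Mesp1 among the 13) and 1.39% for those called lower (4 of 287). It was 25% for the smooth muscle list (6 of 24), 19.4% for the cardiac sarcomere list (6 of 31) and 10.7% for the immediate early list (3 of 28). Of the 11 called smooth muscle members with a window 2 held one (18.2%), as did 2 of the 12 called cardiac members (16.7%). With 1 of the outer bases allowed to differ, the shares were 18.1% for the genes called higher, 10.8% for those called lower and 13.5% for all. A match is a description of the sequence only. The windows below are shown because they belong to the called members of the muscle and serum response lists that hold a box. The box is in capitals and all are written 5′ to 3′ along the gene's strand. Mesp1 also holds a box, but its window is left out because the gene was delivered.
Actc1, chr2:114052826-114053125, minus strand: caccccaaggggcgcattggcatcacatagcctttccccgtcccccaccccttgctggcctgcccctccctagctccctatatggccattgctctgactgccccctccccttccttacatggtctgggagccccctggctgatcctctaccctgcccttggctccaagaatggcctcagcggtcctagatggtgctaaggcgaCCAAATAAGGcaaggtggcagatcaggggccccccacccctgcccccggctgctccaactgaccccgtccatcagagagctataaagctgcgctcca
Acta1, chr8:123894726-123895025, minus strand: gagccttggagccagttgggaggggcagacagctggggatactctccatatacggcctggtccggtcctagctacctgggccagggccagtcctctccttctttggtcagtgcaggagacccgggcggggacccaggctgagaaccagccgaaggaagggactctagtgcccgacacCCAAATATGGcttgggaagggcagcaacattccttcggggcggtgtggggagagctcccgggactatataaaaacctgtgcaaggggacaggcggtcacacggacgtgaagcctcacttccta
Egr2, chr10:67537619-67537918, plus strand, 1 of 4 windows with a box: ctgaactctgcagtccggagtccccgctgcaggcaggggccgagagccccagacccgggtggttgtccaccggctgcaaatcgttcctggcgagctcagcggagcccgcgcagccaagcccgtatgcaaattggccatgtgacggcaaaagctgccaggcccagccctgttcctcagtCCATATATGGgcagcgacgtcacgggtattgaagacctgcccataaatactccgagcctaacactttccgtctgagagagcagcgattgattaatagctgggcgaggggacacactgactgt
Myom1, chr17:71019307-71019606, plus strand: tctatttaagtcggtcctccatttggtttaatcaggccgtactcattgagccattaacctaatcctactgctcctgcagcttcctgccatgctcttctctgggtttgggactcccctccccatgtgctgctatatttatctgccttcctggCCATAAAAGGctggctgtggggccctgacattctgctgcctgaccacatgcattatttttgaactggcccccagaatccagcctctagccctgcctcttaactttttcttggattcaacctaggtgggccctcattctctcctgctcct
Fhl1, chrX:56779433-56779732, plus strand: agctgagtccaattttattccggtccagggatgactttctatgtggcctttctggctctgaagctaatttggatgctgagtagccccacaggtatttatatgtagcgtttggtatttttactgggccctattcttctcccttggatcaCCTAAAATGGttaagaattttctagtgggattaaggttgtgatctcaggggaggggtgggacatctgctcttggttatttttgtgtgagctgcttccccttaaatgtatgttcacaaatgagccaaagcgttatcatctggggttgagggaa
Myl9, chr2:156775214-156775513, plus strand: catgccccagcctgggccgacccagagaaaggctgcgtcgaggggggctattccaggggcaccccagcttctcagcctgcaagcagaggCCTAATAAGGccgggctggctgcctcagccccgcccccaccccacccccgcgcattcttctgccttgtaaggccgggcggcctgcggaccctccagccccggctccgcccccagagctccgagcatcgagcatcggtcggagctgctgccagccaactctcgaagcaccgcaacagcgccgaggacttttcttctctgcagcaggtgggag
In these windows the box began 47 bases before the start in Actc1, 73 in Acta1, 72 in Egr2, 99 in Myom1, 102 in Fhl1 and 161 in Myl9. Their log2 differences, TF group 3 minus TF group 1, were 3.16, 1.34, 1.29, 1.09, 0.94 and 0.78 in that order. The window of Mylk held no match.

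Besides muscle genes, the largest increases included enzymes, a clotting factor and genes best known from neurons. Car2, a cytosolic carbonic anhydrase, gave 2499, 2707 and 2836 in TF group 3, against 56.1, 42.4 and 59.7 in TF group 1 (51.3-fold, SE of the log2 difference 0.18, adjusted p = 2.48e-07). Car3, the carbonic anhydrase of muscle and fat, gave 5363, 5110 and 5463 in TF group 3, against 184, 274 and 256 in TF group 1 (22.7-fold, adjusted p = 3.17e-05). F13a1, the A subunit of clotting factor XIII, gave 1619, 1219 and 1540 in TF group 3, against 29.5, 26.5 and 30 in TF group 1, at least 45.3-fold higher (adjusted p = 1.99e-08). None of these groups came near each other. Grp, the gastrin-releasing peptide, gave 438, 533 and 448 in TF group 3, against 9.4, 19.5 and 33 in TF group 1, at least 14.7-fold higher (adjusted p = 0.000112). Nptx2, a neuronal pentraxin, gave 1277, 1293 and 1273 in TF group 3, against 72.2, 75.1 and 73.8 in TF group 1 (17.4-fold, adjusted p = 7.56e-08). Sez6l2, a membrane protein of neurons, gave 1792, 1589 and 1814 in TF group 3, against 78.9, 74.7 and 49 in TF group 1 (26.2-fold, adjusted p = 4.18e-06, at a probe set able to detect other transcripts, with a second one higher as well). Nptx2 was the most even of these within groups, while Grp varied most in TF group 1, where it was dim. Cd93, a receptor of endothelium and myeloid cells, gave 1429, 1386 and 1386 in TF group 3, against 120, 97.8 and 115 in TF group 1 (12.7-fold). The endothelial list as a whole had no member called higher and 2 lower (7.69%, against 3.05% of all genes). Efhd1, a calcium-binding protein of mitochondria, gave 760, 721 and 793 in TF group 3, against 64.7, 49.5 and 92.2 in TF group 1 (11.4-fold, adjusted p = 1.46e-05).

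Of 27 neuronal genes 5 were called higher and 2 lower (18.5% and 7.41%, against 3.26% and 3.05% of all genes), and their summed signal was 8760 to 9299 in TF group 3 and 7546 to 8330 in TF group 1. The neurofilament genes Nefm (2.81-fold) and Nefl (at least 4.14-fold), the secretogranin gene Scg2 (3.38-fold), the adhesion gene Nrcam (2.71-fold) and the stathmin gene Stmn3 (11.3-fold, at a probe set able to detect other transcripts) were higher. Stmn2 and Gap43, growth cone genes, were lower, with differences of -0.82 and -0.66. Of 23 genes of mesoderm and epithelial-mesenchymal transition 3 were called higher and 1 lower (13% and 4.35%, against 3.26% and 3.05% of all genes). Lhx1, a homeobox gene of early mesoderm, gave 305, 303 and 310 in TF group 3 and was under 10 on every array of TF group 1, so that it was at least 9.57-fold higher (adjusted p = 0.000887). Eomes, a T-box gene that acts upstream of Mesp1 in the embryo, gave 128, 156 and 166 in TF group 3, against 41.2, 55.7 and 51 in TF group 1 (3.05-fold, adjusted p = 0.00164). Bmp4, a ligand that patterns mesoderm, gave 2314, 2455 and 2396 in TF group 3, against 1316, 1262 and 1178 in TF group 1 (1.91-fold, adjusted p = 2.63e-05). These 3 genes did not overlap between the groups.

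**Figure D3:**
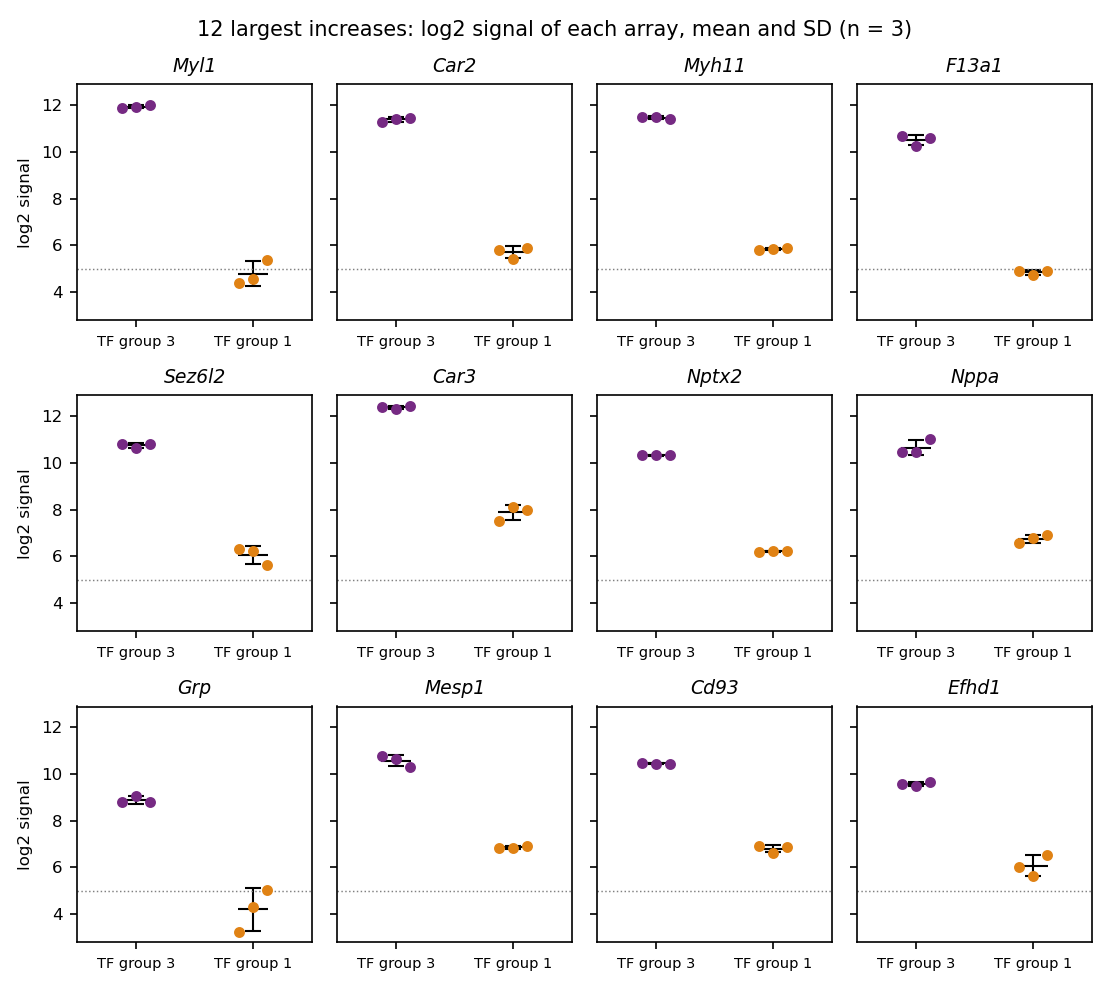
Each panel shows 1 of the 12 genes with the largest increases, with the log2 signal of the 3 arrays of TF group 3 on the left and of TF group 1 on the right (bars, mean and SD, n = 3; dotted line, log2 signal of 5). Genes were picked among those with all arrays of TF group 3 above those of TF group 1. In TF group 1 the arrays of Myl1, F13a1 and Grp lie around or below the dotted line.

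TF group 2, which has 5 of the 7 factors, splits the difference into 2 steps. The first is from TF group 1 to TF group 2, where Mesp1 and SMARCD3 are added. The second is from TF group 2 to TF group 3, where MYOCD and SRF are added. No group had MYOCD and SRF without Mesp1 and SMARCD3, so the second step covers only their addition to cultures with that pair. The second step minus the first was tested for each gene in limma, a contrast chosen after the values were seen. Over all 12393 genes it was positive for 369 (2.98%) and negative for 334 (2.7%). Of the 404 genes higher in TF group 3, the second step was larger for 97 (24%) and the first for 71 (17.6%), and for 236 the steps were not called different. Of the 378 lower genes, the fall was larger in the first step for 40 (10.6%) and in the second for 24 (6.35%). The median of the higher genes was 0.39 for the first step and 0.61 for the second. Of the 30 genes of the 3 muscle lists called higher, the second step was larger for 15 and the first for 3 (Myl1, Ankrd1 and Ttn), and 12 were not called. Mean log2 signals of Myh11 were 5.86 in the negative control, 5.83 in TF group 1, 6.27 in TF group 2 and 11.46 in TF group 3 (adjusted p of the difference of steps 1.07e-05). Those of Mylk were 9.98, 9.63, 9.61 and 12.53 in the same order (adjusted p = 4.22e-06), and Actg2, Lmod1, Cnn1, Actc1, Nppa, Nppb, Cryab and Acta1 were among those called in the same direction. Actg2 had 12.49, 10.89, 11.29 and 13.03, so that its level in TF group 1 was the lowest of the 4 groups. The opposite kind included genes whose signal was highest in TF group 2. Grp had 3.73, 4.19, 12.30 and 8.88 (adjusted p = 3.32e-05), Myl1 had 4.74, 4.78, 13.06 and 11.93 (adjusted p = 1.26e-05), and F13a1 had 3.93, 4.84, 11.77 and 10.50 (adjusted p = 1.04e-07). Car2, at 5.42, 5.71, 11.13 and 11.39, was near its full difference with 5 factors. Kcnmb1, Casq2, Myl2, Myh6, Mylpf, Tnnt1 and Des were not called in either direction. The steps share the arrays of TF group 2, and which factor of a pair a step belongs to cannot be told apart.

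**Figure D4:**
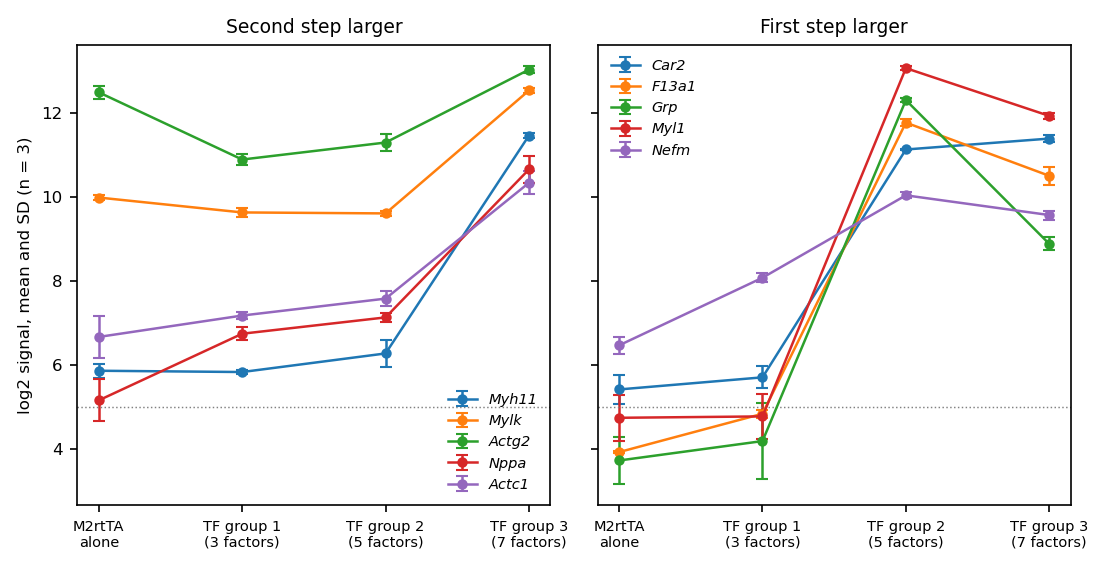
Lines join the mean log2 signals of the negative control, TF group 1, TF group 2 and TF group 3 (bars, SD, n = 3; dotted line, log2 signal of 5) for 10 genes called higher in TF group 3. On the left the signal climbs mainly between TF groups 2 and 3 (Myh11, Mylk, Actg2, Nppa, Actc1), and on the right mainly between TF groups 1 and 2 (Car2, F13a1, Grp, Myl1, Nefm).

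The genes lower in TF group 3 included fibroblast matrix genes and chemokines. Lum, the collagen-binding proteoglycan lumican, had the largest fall once means under 32 were set to 32. It gave 270, 926 and 258 in TF group 3, against 4876, 4616 and 5926 in TF group 1 (12.7-fold lower, log2 difference -3.67, SE 0.43, adjusted p = 0.000563), and replicate 2 of TF group 3 stood between the rest. This array was the highest of TF group 3 for 164 of the 378 lower genes (43.4%), against 29.3% of all genes. Of 39 collagen and fibroblast matrix genes 4 were called higher and 6 lower (10.3% and 15.4%, against 3.26% and 3.05% of all genes). Their median was -0.21, and with poly-A scaling 1 was called higher and 2 lower. Ogn, the proteoglycan osteoglycin, gave 1624, 1993 and 1692 in TF group 3, against 4634, 5414 and 4383 in TF group 1 (2.72-fold lower, adjusted p = 2.63e-05). Dcn, decorin, gave 1717, 2084 and 1814 in TF group 3, against 3800, 3903 and 4075 in TF group 1 (2.1-fold lower, adjusted p = 6.47e-05). The groups were apart for both. Fbln1 and Fmod, a fibulin and another small proteoglycan (the probe set of Fmod can detect other transcripts), and Col16a1 fell by 0.64 to 0.85. The basement membrane collagens Col4a1 (0.72) and Col4a2 (0.72), Col6a3 (0.99) and the tenascin Tnc (0.65) were higher. The abundant interstitial collagens were not called. Col1a1 gave 6275, 6153 and 6034 in TF group 3, against 7372, 7092 and 6700 in TF group 1 (difference -0.20, adjusted p = 0.0635), and Col3a1 differed by -0.43 (adjusted p = 0.00331), under the fold threshold.

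Of 31 fibroblast identity genes 7 were called lower and 1 higher (22.6% against 3.05% of all genes, and 3.23% against 3.26%), with a median of -0.47. With poly-A scaling 4 were called lower. Pdgfra, the PDGF receptor of mesenchymal cells, gave 682, 704 and 686 in TF group 3, against 1633, 1920 and 1846 in TF group 1 (2.6-fold lower, adjusted p = 2.6e-05), while its second probe set differed by -0.56 and was not called. Cd34, a surface marker of fibroblast progenitors and endothelium, gave 60, 102 and 82.2 in TF group 3, against 245, 272 and 218 in TF group 1 (3.06-fold lower, adjusted p = 0.000324). Dpt, dermatopontin, gave 89.5, 119 and 109 in TF group 3, against 286, 368 and 264 in TF group 1 (2.89-fold lower, adjusted p = 0.000375). Each fell on all 3 arrays below the lowest of TF group 1. S100a4 (-0.70), Prrx1 (-0.63), Fbln1 and Meox2 were also lower, and Vcam1 was higher by 0.60, a call that ended without TF group 3 replicate 1 or TF group 1 replicate 2 or 3 (0.57 to 0.58). Thy1, another surface marker of fibroblasts, gave 2081, 1869 and 1968 in TF group 3, against 2291, 2287 and 2576 in TF group 1 (difference -0.27, adjusted p = 0.0972).

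Of 34 chemokine and cytokine genes 8 were called lower and 1 higher (23.5% and 2.94%, against 3.05% and 3.26% of all genes). The median of the list was nevertheless 0.00, and 4 were lower with poly-A scaling. Cxcl5, a neutrophil-attracting chemokine, gave 46.9, 112 and 56.1 in TF group 3, against 752, 534 and 768 in TF group 1 (10.2-fold lower, adjusted p = 0.000173). Cxcl1, a related chemokine, gave 92.1, 107 and 102 in TF group 3, against 413, 488 and 409 in TF group 1 (4.35-fold lower, adjusted p = 0.000609). Il1rn, the interleukin-1 receptor antagonist, gave 538, 836 and 547 in TF group 3, against 2460, 1982 and 2137 in TF group 1 (3.48-fold lower, adjusted p = 0.000449). In each of these, as in Lum, replicate 2 of TF group 3 was the highest of its group and still below TF group 1. Il33 (3.08-fold), Cxcl12 (1.9-fold), Cxcl14 and Cx3cl1 were lower as well, and Ccl11 was lower but under a signal of 32 in both groups. The call of Il33 ended with only the 6 arrays in the model (adjusted p = 0.0599). Ccl17, a chemokine for T cells, was the one higher, with 1173, 1303 and 1287 in TF group 3, against 212, 219 and 217 in TF group 1 (5.8-fold, adjusted p = 7.88e-07). Of 23 complement and coagulation genes 3 were higher and 5 lower (13% and 21.7%, against 3.26% and 3.05% of all genes). The complement proteases C1ra (2.77-fold) and C1s1 (3.95-fold), their inhibitor Serping1 (2.19-fold), Plat and Cd55 were lower (C1s1 at a probe set that can detect related transcripts), and F13a1, the complement inhibitor Cd59a (3.3-fold) and tissue factor (F3, 1.57-fold) were higher. The call of Cd55 ended without any 1 array but TF group 1 replicate 2 (-0.51 to -0.62).

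Secreted regulators of growth were among the lower genes too. Sfrp2, a Wnt antagonist, gave 54, 86.5 and 67.5 in TF group 3, against 854, 547 and 501 in TF group 1 (9.05-fold lower, adjusted p = 3.03e-05). Frzb, a relative of Sfrp2, gave 97, 83.9 and 83.4 in TF group 3, against 210, 269 and 241 in TF group 1 (2.71-fold lower, adjusted p = 9.81e-05). Of 38 Wnt genes these, Ccn5 and Wif1 were the 4 called lower (10.5%, against 3.05% of all genes). Wnt2, a ligand, was the 1 called higher (3.48-fold), a share of 2.63% against 3.26% of all genes. The call of Wif1 ended when any 1 array but TF group 3 replicate 1 was left out (-0.55 to -0.71). All 3 called members among 15 IGF axis genes were lower (20%, against 3.05% of all genes). They were the binding proteins Igfbp4 (2.08-fold), Igfbp5 (1.78-fold) and Igfbp3 (1.67-fold). None of them was called with poly-A scaling. Of 41 TGF-beta and BMP genes 3 were higher (Bmp4, Inhba and Tgfb3) and 4 lower (Grem1, Tgfbr2, Chrd and Tgfbi). These shares were 7.32% and 9.76%, against 3.26% and 3.05% of all genes. With 1 array left out 2 or 3 were lower. The call of Chrd ended without any 1 array but TF group 3 replicate 1 (-0.52 to -0.67), and that of Tgfbi without replicate 1 or 2 of TF group 3 or replicate 2 or 3 of TF group 1 (-0.49 to -0.56). With the mean of its probe sets the adjusted p of Tgfbr2 was 0.0721. Abi3bp, a matrix protein gene, gave 40.4, 60.2 and 23.7 in TF group 3, against 262, 305 and 321 in TF group 1 (7.64-fold lower, adjusted p = 0.000288, at a probe set that can detect related transcripts). Egfl6, a secreted EGF-like protein, was under 32 on each array of TF group 3 and gave 262, 214 and 250 in TF group 1 (at least 7.53-fold lower, adjusted p = 4.18e-06). The other genes among the 12 largest decreases were Ecrg4 (4.86-fold), a secreted peptide precursor; Slc17a6 (4.73-fold), a vesicular glutamate transporter; Slc6a18 (4.67-fold), an amino acid transporter; Epyc (at least 4.41-fold), a small proteoglycan; Pgam2 (at least 4.38-fold), the muscle phosphoglycerate mutase; and 2210407C18Rik (7.1-fold). Genes ranked here were picked among those with all 3 arrays of TF group 3 below those of TF group 1.

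**Figure D5:**
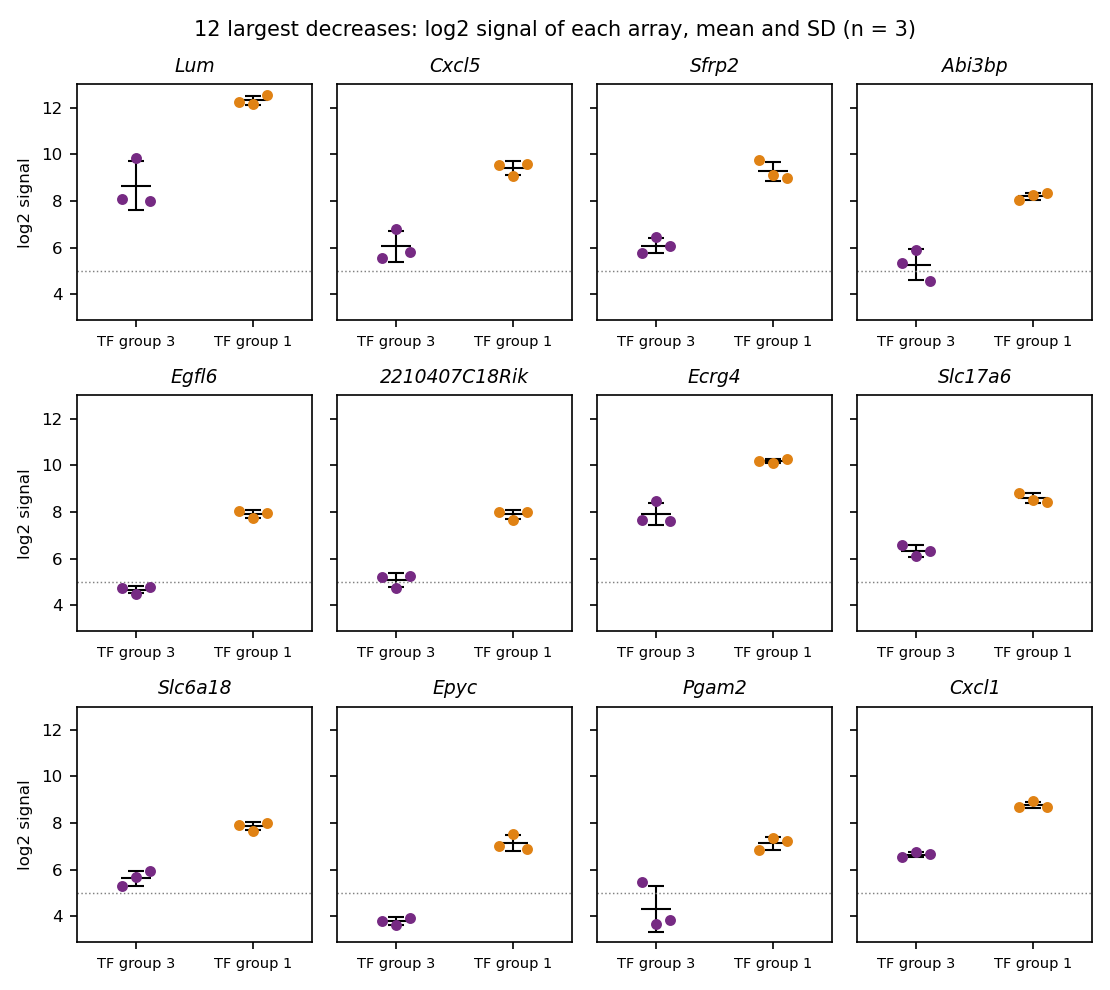
Each panel shows 1 of the 12 genes with the largest decreases, with the log2 signal of the 3 arrays of TF group 3 on the left and of TF group 1 on the right (bars, mean and SD, n = 3; dotted line, log2 signal of 5). Genes were picked among those whose groups do not overlap. For Lum, Cxcl5 and Ecrg4 the middle point of TF group 3, replicate 2, stands above the other 2.

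Several groups of housekeeping and growth genes had few calls. Of 51 mitosis genes 1 was higher and 1 lower (median -0.04), and of 43 S phase genes 2 were higher (median -0.07). These medians join 2 steps of opposite sign. From TF group 1 to TF group 2 the median was -0.29 for mitosis and -0.20 for S phase genes. From TF group 2 to TF group 3 it was 0.30 and 0.13, against -0.01 for all genes in each step. No member was called in either direction among 34 genes of the unfolded protein and integrated stress response, 21 BAF chromatin remodelling subunits or 22 ribosomal protein and RNA quality genes. Of 35 lysosomal genes 2 were lower, and of 24 CDK inhibitor and p53 target genes 1 was. These shares were between 0% and 5.71%, around the 3.26% and 3.05% of all genes called higher and lower. They rest on the fold threshold. Without it 8 of the 34 stress response genes were lower and 0 higher, and 10 of the 35 lysosomal genes were lower and 2 higher. Of all 12393 genes 1000 were then lower and 895 higher.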

How the data were processed

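Total RNA of MEF cultures was hybridised to Affymetrix Mouse Genome arrays, 1 array per culture, 3 per group. The values deposited by the authors are linear intensities, 1 signal per probe set and array. The submitters' processing notes name RMA and Partek without versions, but the deposited intensities are linear, go below 1 and share a trimmed mean, so the method that summarised them is not settled. No further scaling was applied, and log2 was taken of each value. All 12 array columns matched a labelled sample (0 per-sample columns were left unmapped). Of 22626 probe sets tested after removal of 64 controls, 20380 had 1 gene symbol, 691 had several and 1555 had none in the platform annotation. The probe set with the highest mean log2 signal stood for each of 12393 genes.

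A linear model with 1 mean per group was fitted to all 12 arrays in limma 3.58.1 (R 4.3.3), with moderated tests and Benjamini-Hochberg adjustment over all 22626 probe sets. A call needed a change of over 1.5-fold with an adjusted p below 0.05. Where the dimmer group averaged under a signal of 32, a fold was set against 32 and given as at least so many fold, and none was given with both groups under 32. SEs are those of the model, on the log2 scale. Control probe sets were compared by exact permutation. Per the study's methods MEFs that had received M2rtTA were split into the groups, and nothing in the labels says that the replicates came from separate embryos. The p-values therefore measure the spread between these cultures, and 3 arrays a group limit the precision. The labels number the replicates 1 to 3 in each group, but same-numbered arrays did not deviate together (r = 0.0088 to 0.0253 over probe sets), so the numbers were not treated as pairs. The named genes are the 12 largest changes in each direction with groups apart, all delivered factors, up to 5 called members per direction of each of 33 gene lists, and examples of uncalled muscle and serum response genes. Other list members named to complete a count of calls, and Thy1, Col3a1, Myod1, Myog, Ptprc, Adgre1, Tagln and Cald1, were chosen after their values were seen or as markers. The members and lists were chosen with earlier results of these data known. Scripts were tested on simulated data. Promoter sequences are RefSeq's, from GRCm38.p6, matched by symbol. Alternatives covered scaling, offset, thresholds, the model and leaving out each array.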

Additional observations from a re-analysis of the deposited data

How the results depend on the processing

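Without the fold threshold 1474 probe sets (895 genes) were higher in TF group 3 and 1541 (1000 genes) lower, and with a fold change over 2 the counts were 333 (222 genes) and 210 (136 genes). Scaling arrays to their poly-A spikes left 401 probe sets (259 genes) higher and 142 (86 genes) lower, and an offset of 50 before log2 left 388 probe sets lower. The cause was not tested. Leaving out 1 array gave 570 to 666 probe sets (350 to 387 genes) higher and 509 to 568 (324 to 368 genes) lower. With the replicate block, 654 probe sets (388 genes) were higher and 570 (371 genes) lower, and since the numbers do not pair the arrays this is not read further. The other alternatives kept each count within 1.5 times. Of 134 named probe sets called, 109 were called with any array left out and 69 under every alternative. The direction turned for Psen2 (a log2 difference of 0.0766, adjusted p = 0.899, with the mean of its probe sets). Low signals limit genes near 32, where replicates scatter most.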

Other observations

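Other lists held single genes with large differences. Ifitm1, an interferon-induced membrane protein, gave 2133, 2385 and 2310 in TF group 3, against 218, 233 and 209 in TF group 1 (10.3-fold higher, limma adjusted p = 3.74e-07), with the groups far apart. Of 29 interferon response genes it was the 1 called higher and 2 were lower (3.45% and 6.9%, against 3.26% and 3.05% of all genes). Of 47 genes of muscle energy metabolism 3 were higher and 3 lower (6.38% each, against 3.26% and 3.05% of all genes). Eno3, the muscle enolase, gave 565, 588 and 587 in TF group 3, against 194, 188 and 230 in TF group 1 (2.86-fold, adjusted p = 4.9e-05), while Pgam2, which acts one step before it in glycolysis, was among the largest decreases. Lpl, the lipoprotein lipase, gave 695, 637 and 610 in TF group 3, against 298, 237 and 268 in TF group 1 (2.43-fold, adjusted p = 5.32e-05). The groups did not overlap for either enzyme.

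Pkp2, a plakophilin of desmosomes and of cardiac intercalated discs, gave 1496, 1511 and 1462 in TF group 3, against 597, 604 and 625 in TF group 1 (2.45-fold, adjusted p = 1.66e-06, at a probe set that can detect related transcripts). Of 31 epithelial and desmosome genes 4 were called higher and 3 lower (12.9% and 9.68%, against 3.26% and 3.05% of all genes). The median of that list was -0.09. Of 7 small heat shock protein genes Hspb1 and Cryab were higher (28.6%, against 3.26% of all genes) and none was lower. Hspb1, a chaperone of the actin cytoskeleton, gave 8391, 8511 and 9200 in TF group 3, against 5355, 5010 and 5118 in TF group 1 (1.69-fold, adjusted p = 8.54e-05), and neither was called with arrays scaled to their poly-A spikes. Cd68, of macrophage lysosomes, was the 1 of 26 macrophage genes called (3.85%, against 3.26% of all genes called higher). It gave 135, 113 and 121 in TF group 3, against 72.6, 36 and 49.6 in TF group 1 (limma adjusted p = 0.0153, or 0.0563 without TF group 3 replicate 1).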
